A study of Mus musculus with 6 samples.

Results

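The myosin thick filament genes of the right atrium (RA) were read in mice with and without volume overload (VO). The set of 10 genes, chosen by name, held the heavy chains Myh6 and Myh7, the regulatory light chains Myl7 and Myl2, the essential light chains Myl4 and Myl3, the myosin light chain kinases Mylk3 and Mylk4, and the myosin-binding proteins Mybpc3 and Mybphl. They are 10 of 54093 complete genes in the expression table, and each symbol had 1 row. The mice were C57BL/6 with the genotype WT, and RA tissue was taken on postnatal day 21 (P21) from 3 sham-operated and 3 VO libraries. VO had been made earlier by aortocaval fistula, an opening between the abdominal aorta and the inferior vena cava that returns extra blood to the RA, and the sham mice had the operation without the opening. Each library is named here by its group and replicate number. Neither the labels nor the methods say how many mice gave RNA to a library, so the p-values below measure the spread between these libraries.

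Thick filaments are bundles of myosin, the motor that pulls on actin and shortens the sarcomere. Each myosin head has a heavy chain that splits ATP, an essential light chain that stiffens the lever arm, and a regulatory light chain whose phosphorylation by a light chain kinase moves the head toward actin. Atria and ventricles use different light chains. Myl7 and Myl4 are the atrial regulatory and essential forms, while Myl2 and Myl3 are the ventricular forms. Myh6 encodes the fast alpha heavy chain of the adult mouse heart, and Myh7 encodes the slower beta heavy chain that predominates in the fetal mouse ventricle. Myosin-binding protein C, from Mybpc3, links the thick filament to actin and holds heads back, and Mybphl encodes a smaller related protein found mainly in atria.

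All 10 genes were lower in VO than in sham by their mean log2 level, against 51.5% of the 12627 tested genes. The median log2 fold change was -0.67 for the 10 genes and -0.01 for all tested genes. None of the 10 passed limma with Benjamini-Hochberg adjustment, with adjusted p-values from 0.157 to 0.699. In the whole table that test called 1 gene, which is 0.00792% of those tested. The gene is Nppb, which encodes the natriuretic peptide BNP, and it was named after its values were seen. At an unadjusted p under 0.05, 7 of the 10 genes were lower, against 8.08% of the tested genes. In 6 of the 10 every VO library was below every sham library, against 12.9% of the tested genes. Fewer cardiomyocytes in the tissue and less RNA per cardiomyocyte cannot be told apart in these bulk samples.

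**Figure D1:**
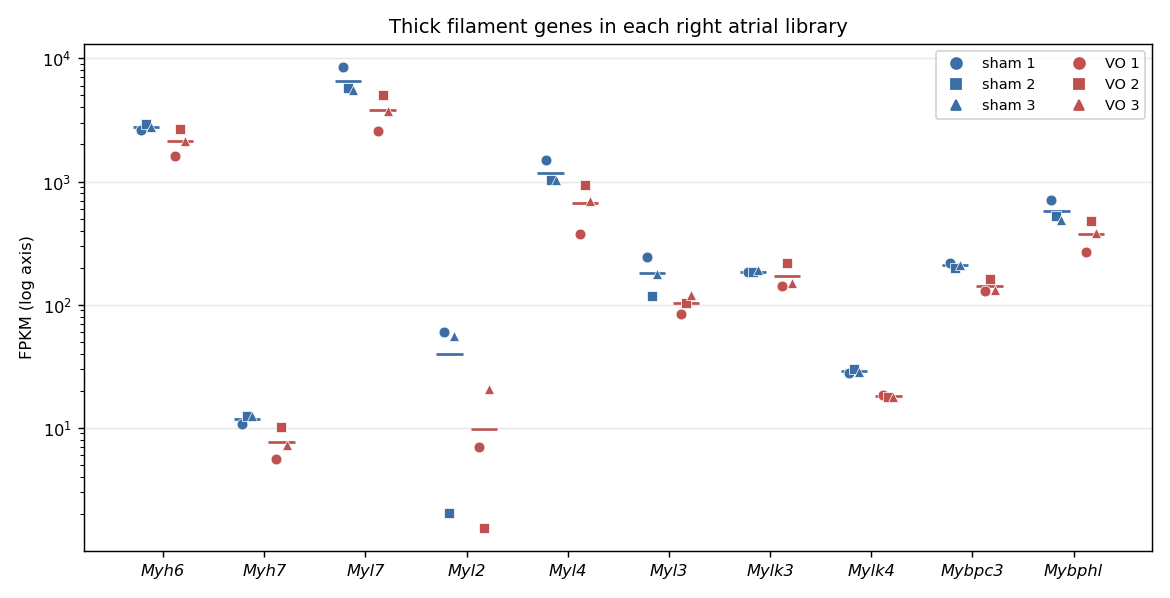
FPKM of the 10 thick filament genes on a log axis in the 3 sham (blue) and 3 VO (red) libraries, with marker shapes for replicate numbers and horizontal bars for group means. Levels ran from 1.54 for Myl2 in VO 2 to 8501 for Myl7 in sham 1, and Mylk4 kept the VO libraries together at 17.7 to 18.6 below the sham libraries at 27.8 to 30.3.

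The libraries held 15963082 to 17237903 fragments on genes. Some of them stood apart before any thick filament gene was considered. VO 1 had a summed level of 5 macrophage markers of 707.6 FPKM against 181 to 260 in the other libraries. VO 3 was the one library with Ucp1, the heat-producing uncoupling protein of brown fat, at 253.6 FPKM. Red cell genes summed to 6164 FPKM in sham 1 and 7726 in VO 1 against 638 to 2162 elsewhere. Genes shorter than 1000 bases had a median log2 level 0.31 above their 6-library mean in sham 1 and 0.21 below it in VO 1, and within 0.04 of it in the other libraries. These 2 libraries therefore lay at opposite ends for short genes, a class that holds Myl7 by the length in the table and all 4 light chains by that of their principal transcripts. Of the 10 thick filament genes, 6 were highest in sham 1 and 8 were lowest in VO 1. The counts of 6 and 8 were not set against all tested genes, so they cannot separate a library-wide trend from a trait of these genes. When both libraries were left out, all 10 genes were still lower in VO, and 3 had an unadjusted p under 0.05 in limma. In the same fit 624 of the 12627 tested genes were lower and 340 were higher at that p. Their median difference there was -0.003 on the log2 scale over all 12627. Together the 10 genes took 3.11, 3.07 and 2.87% of the fragments in sham 1 to 3 and 1.73, 2.83 and 2.22% in VO 1 to 3. The part that the length trend, the macrophage share, the red cell share or the fat had in the results below was not tested.

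To show the start regions of the genes, the 250 bases before the annotated start were taken from RefSeq (build GRCm38.p6) for all 10 genes. With alternative starts these were 13 promoters. The letters searched on both strands were AGATAA for GATA factors, CATTCC for the M-CAT element and AGGTCA for the nuclear receptor motif, with the MEF2 site and the CArG box by name. The CArG box, which binds serum response factor, occurred in the promoters of Myl7 and Myl3, and in 1.47% of all 32851 promoters. The MEF2 site occurred in the promoters of Mylk4 and Mybpc3, and in 2.92% of all. CATTCC was found in 5 of the 13 promoters and in 12.6% of all, AGATAA in 3 and 9.99%, and AGGTCA in 2 and 14.0%. The 4 promoters with a CArG box or a MEF2 site are printed below, 5′ to 3′ on the strand of the gene, with matched letters in capitals. A match describes the letters and does not show that a factor binds there.
Myl7 (chr11:5898783-5899032, minus strand): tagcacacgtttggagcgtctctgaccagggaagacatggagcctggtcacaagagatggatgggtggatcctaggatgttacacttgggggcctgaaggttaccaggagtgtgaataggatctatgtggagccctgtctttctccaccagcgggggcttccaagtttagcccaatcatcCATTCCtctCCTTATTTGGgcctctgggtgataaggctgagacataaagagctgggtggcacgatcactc
Myl3 (chr9:110763428-110763677, plus strand): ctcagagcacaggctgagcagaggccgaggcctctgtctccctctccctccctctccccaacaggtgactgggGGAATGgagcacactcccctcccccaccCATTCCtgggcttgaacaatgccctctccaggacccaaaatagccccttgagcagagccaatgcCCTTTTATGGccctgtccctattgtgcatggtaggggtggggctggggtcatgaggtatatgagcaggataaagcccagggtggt
Mylk4 (chr13:32783965-32784214, minus strand): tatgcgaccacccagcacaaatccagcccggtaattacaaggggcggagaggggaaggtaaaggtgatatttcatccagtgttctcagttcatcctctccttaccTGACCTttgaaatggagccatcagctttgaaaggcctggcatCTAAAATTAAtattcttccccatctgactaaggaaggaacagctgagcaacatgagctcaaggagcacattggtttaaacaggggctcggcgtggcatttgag
Mybpc3 (chr2:91117894-91118143, plus strand): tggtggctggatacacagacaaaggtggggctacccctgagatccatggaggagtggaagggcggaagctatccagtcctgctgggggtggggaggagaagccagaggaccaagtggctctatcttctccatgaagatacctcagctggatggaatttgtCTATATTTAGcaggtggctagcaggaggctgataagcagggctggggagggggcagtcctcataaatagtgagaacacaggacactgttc
In the Myl7 promoter the CArG box began 61 bases before the start, and CATTCC began 70 bases before it, with 3 bases between them. The RefSeq start of Myl3 lies inside the span that the expression table gives the gene. In the Myl3 promoter the CArG box began 85 bases before the start, and CATTCC occurred on both strands farther out. The MEF2 site began 103 bases before the start of Mylk4 and 90 bases before that of Mybpc3. The Mylk4 promoter also held AGGTCA on the opposite strand, printed as TGACCT.

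Myh6 was the main heavy chain gene. It lies on the minus strand at chr14:54941921-54966927, followed by Myh7 at chr14:54970684-54994626. Myh6 stood at 2605, 2920 and 2758 FPKM in sham 1 to 3 and at 1622, 2645 and 2148 in VO 1 to 3. VO 2 lay above sham 1, so the groups overlapped. The log2 fold change was -0.40 with a standard error of 0.23 and an unadjusted p of 0.122 in limma (adjusted p = 0.467). Without VO 1 it was -0.21. Myh6 rested on 197960 to 338588 fragments per library, so counting error was small beside the spread between VO libraries (CV 23.9%, against 5.72% in sham).

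Myh7 was read at 10.7, 12.4 and 12.4 FPKM in sham and at 5.58, 10.1 and 7.21 in VO. All VO libraries were below all sham libraries, and VO 2 came closest to them. The log2 fold change was -0.66 ± 0.21 (SE), with an unadjusted p of 0.0160 and an adjusted p of 0.404 in limma. The difference was -0.46 without VO 1. Myh7 made up 0.409, 0.424 and 0.447% of the summed heavy chain FPKM in sham and 0.343, 0.382 and 0.334% in VO.

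The Myh6 to Myh7 ratio was 244, 235 and 223 in sham and 290, 261 and 298 in VO. It was higher in every VO library than in any sham library, by 0.27 on the log2 scale. The exact two-sided permutation p was 0.1, the smallest that 3 libraries against 3 can give, and 0.3 after adjustment over the 3 atrial to ventricular ratios. The principal transcripts of Myh6 and Myh7 share 15.3% of the 75-base windows of Myh7, and Myh6 had more than 100 times as many fragments. How the counting treated reads that match both genes is not given in the sources used here.

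The antisense transcript Mhrt, at chr14:54968678-54974349 on the plus strand, has 484 of its 1214 exonic bases inside Myh7 exons. Mhrt stood at 19.2, 16.5 and 19.4 FPKM in sham and 8.08, 17.3 and 12.9 in VO. The groups overlapped through VO 2 (log2 fold change -0.59 ± 0.26 SE, limma adjusted p = 0.414). Whether the counting used strand is not stated, so reads of Mhrt and Myh7 in the shared bases cannot be told apart.

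The heavy chain genes carry microRNAs in their introns, Mir208a in Myh6 and Mir208b in Myh7, and Mir499 lies in Myh7b. Their mature forms are printed in RNA letters as RefSeq gives them, with the seed (bases 2 to 8) in capitals, to show that the intronic pair shares a seed.
mmu-miR-208a-3p (chr14:54949072-54949093, minus strand): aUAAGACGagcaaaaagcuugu
mmu-miR-208b-3p (chr14:54975710-54975731, minus strand): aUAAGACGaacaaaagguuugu
mmu-miR-499-5p (chr2:155622893-155622913, plus strand): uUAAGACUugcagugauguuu
The first and second share the seed UAAGACG, and the third has UAAGACU. The row for the Mir208b hairpin had 86.8, 116 and 102 FPKM in sham and 45.1, 138 and 61.6 in VO. The highest and the lowest value were both in VO, so the groups overlapped, on 63 to 173 fragments per library. Mir208a had 0 to 5 fragments and Mir499 was listed at 0 in all 6 libraries. The libraries were not made for small RNA, so the hairpin rows cannot be told apart from intron reads of the heavy chain genes and give no level of the mature forms.

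Myl7, on the minus strand at chr11:5896637-5898782, had the highest FPKM of the set. It stood at 8501, 5701 and 5531 FPKM in sham 1 to 3 and at 2586, 5056 and 3767 in VO 1 to 3. Sham 1 was far above the other sham libraries, VO 1 was the lowest, and the groups did not overlap. Myl7 had a log2 fold change of -0.81 ± 0.32 (SE), with an unadjusted p of 0.0378 and an adjusted p of 0.410 in limma. Without sham 1 the difference was -0.62, without VO 1 it was -0.56, and without both it was -0.36.

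Myl2, on the plus strand at chr5:122100951-122113472, was scarce and uneven. It was read at 60.4, 2.02 and 56.0 FPKM in sham and at 6.95, 1.54 and 20.6 in VO. Sham 2 and VO 2 were the lowest libraries and held 68 and 49 fragments. The highest library exceeded the lowest 29.9-fold in sham and 13.4-fold in VO. The log2 fold change of -1.64 had a 95% confidence interval from -5.04 to 1.77 (limma adjusted p = 0.603), so a difference between groups could not be detected at this spread. Single libraries moved the value widely, to -3.23 without sham 2 (unadjusted p = 0.0158, adjusted p = 0.546 in limma) and to -0.68 without VO 2. In a fit blocked by replicate number, limma gave an unadjusted p of 0.0249 and an adjusted p of 0.601. Whether the numbers pair the libraries is not known. The summed level of 6 ventricular marker genes was 5.42 to 6.49 FPKM in sham and 4.50 to 6.35 in VO. Irx3 and Hey2 made up most of this sum. Irx4, a defining ventricular factor, was at 0.0247, 0.0223 and 0.259 FPKM in sham and 0.0423, 0 and 0.117 in VO. These values are too low to rank the libraries. Hand1 was at 0 in every library but VO 3 (0.0304 FPKM).

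The Myl7 to Myl2 ratio was 141, 2818 and 98.8 in sham and 372, 3280 and 183 in VO. Per principal transcript length it was 64.1, 1285 and 45.1 in sham and 170, 1495 and 83.3 in VO, so the atrial form was the higher by far on either length. Between the groups the ratio differed by 0.82 on the log2 scale (exact two-sided permutation p = 0.5, adjusted p = 0.7), and the difference turned negative without sham 3 (-0.06) or without VO 2 (-0.37). Myl2 was 0.706, 0.0355 and 1.00% of the summed regulatory light chain FPKM in sham and 0.268, 0.0305 and 0.544% in VO. Per principal transcript length these shares were 1.54, 0.0778 and 2.17% in sham and 0.586, 0.0668 and 1.19% in VO.

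Myl4, on the plus strand at chr11:104550663-104595753, stood at 1484, 1029 and 1030 FPKM in sham and at 378, 933 and 691 in VO. Every VO library was below every sham library, with VO 1 far below the rest. For Myl4 this was a log2 fold change of -0.90 ± 0.34 (SE), with an unadjusted p of 0.0344 and an adjusted p of 0.410 in limma. Without VO 1 it was -0.53, and without sham 1 and VO 1 it was -0.36.

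Myl3, on the plus strand at chr9:110741861-110769798, was read at 246, 117 and 177 FPKM in sham and at 83.8, 102 and 121 in VO. VO 3 lay just above sham 2, so the groups overlapped, although the unadjusted p was 0.0273 (limma adjusted p = 0.408). The log2 fold change was -0.77 ± 0.28 (SE). Without sham 1 it was -0.51 (unadjusted p = 0.0751 in limma), and without sham 1 and VO 1 it was -0.38 (unadjusted p = 0.145 in limma). The gene is also a main essential light chain of slow skeletal muscle, for which the marker list held no gene. The listed skeletal muscle markers are of fast muscle, and their sum was 9.73 to 12.1 FPKM in sham and 2.23 to 7.56 in VO. The adult fast skeletal heavy chain gene Myh1 was at 0 in every library and Myh2 and Myh4 stayed under 0.1 FPKM.

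The Myl4 to Myl3 ratio was 6.04, 8.77 and 5.80 in sham and 4.51, 9.12 and 5.72 in VO. The second library of each group was the highest, and the groups overlapped throughout. The difference of -0.13 on the log2 scale had an exact two-sided permutation p of 0.7 (adjusted p = 0.7), and its sign changed without sham 2 (0.06) or without VO 1 (0.10). Per principal transcript length the ratio was 13.6, 19.8 and 13.1 in sham and 10.2, 20.6 and 12.9 in VO. A further ratio, Myl7 to Myl4, kept both atrial forms together at 5.73, 5.54 and 5.37 in sham and 6.84, 5.42 and 5.45 in VO.

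**Figure D2:**
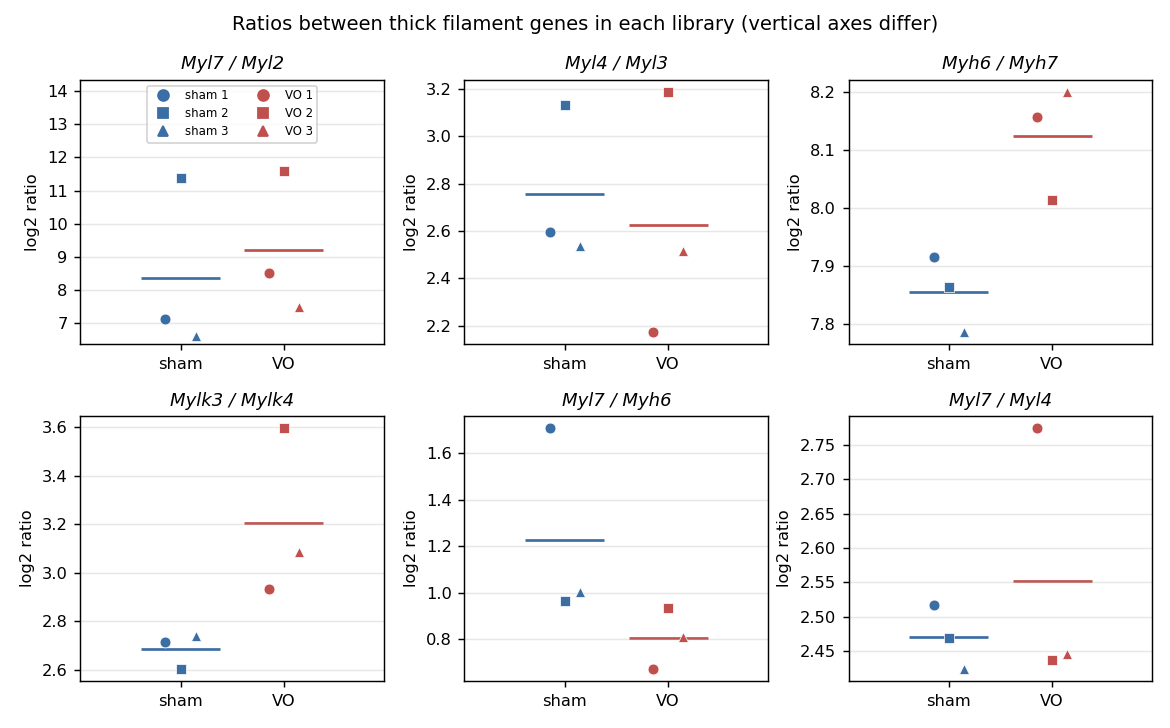
Log2 ratio of FPKM between 6 pairs of thick filament genes in the 3 sham (blue) and 3 VO (red) libraries, with bars for group means and a separate vertical axis for each pair. Myh6/Myh7 and Mylk3/Mylk4 were higher in every VO library, Myl7/Myh6 was lower in every VO library, and the other 3 ratios overlapped between groups.

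Levels of Myl4, Myl2 and Myl3 depended on the gene length used. The table divides by all exons of all transcripts, which is 4637 bases for Myl4, while its principal transcript in GENCODE M21 has 943. Per principal transcript length the sham mean of Myl4 was 5808 ± 1291 (SD, n = 3), close to 6578 ± 1668 for Myl7 and above 3038 ± 174 for Myh6. On the scale of the table Myl4 was the third and Myh6 was the second. Per principal transcript length the Myl7 to Myl4 ratio was 1.16, 1.13 and 1.09 in sham and 1.39, 1.10 and 1.11 in VO. The sham mean was 86.6 ± 71.3 for Myl2 and 393 ± 140 for Myl3 on that scale (SD, n = 3). Fold changes between groups are not touched by the length. The annotated span of Myl4 overlaps Gm11665, Gm22000, Gm11663 and Gm11661, that of Myl2 overlaps Ccdc63 and that of Myl3 overlaps Pth1r. Of the other members, only Myl7 and Mybpc3 overlap no annotated gene. Reads of overlapping genes may be split between them. Shared exonic bases were not counted for the light chain genes.

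The main atrial light and heavy chains were also compared with each other. The Myl7 to Myh6 ratio was 3.26, 1.95 and 2.01 in sham and 1.59, 1.91 and 1.75 in VO, a difference of -0.42 on the log2 scale without overlap (exact permutation p = 0.1, the smallest possible, adjusted p = 0.233 over the 7 ratios of other pairs). VO 2 lay just below sham 2. The difference was -0.18 without sham 1 and -0.11 without sham 1 and VO 1. With both left out, the log2 fold change was -0.25 for Myh6 and -0.53 for Myh7. Those of Myl7 (-0.36), Myl4 (-0.36) and Myl3 (-0.38) lay between them. Summed per principal transcript length, essential light chains stood to heavy chains as 2.72, 1.65 and 1.79 in sham and 1.14, 1.65 and 1.54 in VO. This ratio and the regulatory one were highest in sham 1 and lowest in VO 1, the libraries in which short genes were also highest and lowest. The principal transcripts of the light chains have 590 to 943 bases and those of the heavy chains 6113 and 6230. The part of the length trend in this ratio was not tested.

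**Figure D3:**
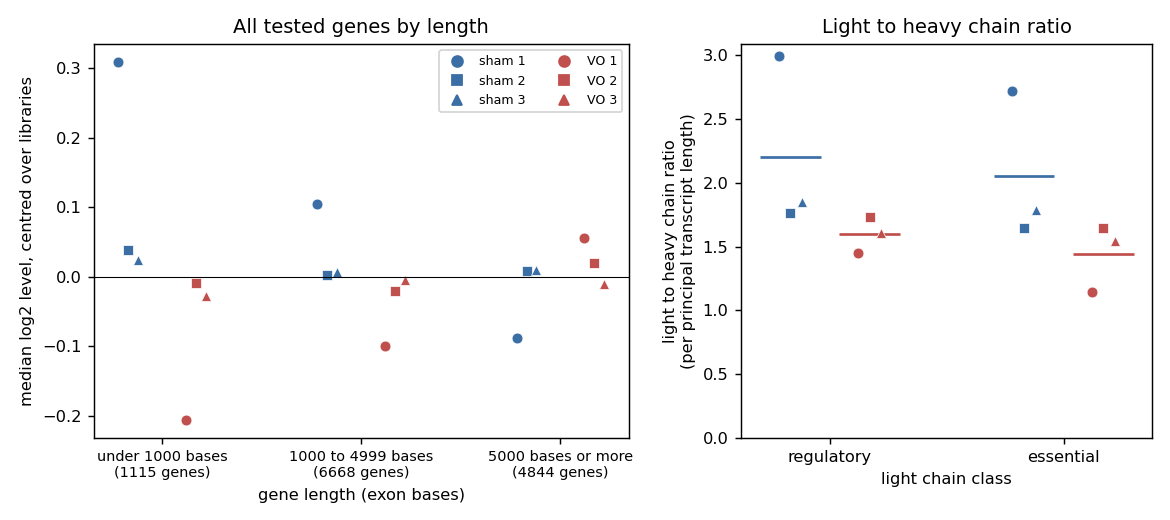
Left, median log2 level (centred over the 6 libraries) of all tested genes in 3 classes of gene length for each library. Right, summed light to summed heavy chain level per principal transcript length, with bars for group means. Sham 1 was highest and VO 1 lowest for genes under 1000 bases (0.31 and -0.21) and in both light to heavy chain ratios.

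The light chain kinases differed from each other. Mylk4, on the minus strand at chr13:32700834-32783954, encodes a light chain kinase related to that of Mylk3 and was the less abundant of the pair. It stood at 27.8, 30.3 and 28.3 FPKM in sham and at 18.6, 17.9 and 17.7 in VO. The libraries of each group lay close together (CV 4.59% in sham and 2.40% in VO) and the groups were well apart. The log2 fold change was -0.67 ± 0.092 (SE), with an unadjusted p of 0.000164, the 12th smallest of the 12627 tested genes, and an adjusted p of 0.157 in limma. Leaving out each library in turn gave -0.69 to -0.63, so no single library set this value. Mylk4 was also not lowest in VO 1.

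Mylk3, on the minus strand at chr8:85324303-85386345, encodes the cardiac myosin light chain kinase, which phosphorylates the ventricular regulatory light chain. It stood at 183, 185 and 190 FPKM in sham and at 142, 218 and 151 in VO. VO 2 was the highest of all libraries and VO 1 the lowest, so the sham values lay inside the VO range. Mylk3 had a log2 fold change of -0.15 with a 95% confidence interval from -0.57 to 0.27 (limma adjusted p = 0.699). The sign turned with quantile normalization (0.11) and with scaling to cardiomyocyte genes (0.40).

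The Mylk3 to Mylk4 ratio was 6.58, 6.10 and 6.70 in sham and 7.67, 12.1 and 8.53 in VO. It was higher in every VO library, by 0.52 on the log2 scale (exact two-sided permutation p = 0.1, the smallest possible, adjusted p = 0.233). VO 2 had the largest ratio, and without it the difference was 0.32. The share of Mylk4 in the summed kinase FPKM was 13.2, 14.1 and 12.98% in sham and 11.5, 7.61 and 10.5% in VO. Both kinases have long transcripts, of 3696 and 5571 bases. VO 1, the library with the fewest fragments on the 10 genes, had the smallest ratio of the VO group.

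Mybpc3, on the plus strand at chr2:91118144-91136516, was read at 219, 200 and 211 FPKM in sham and at 129, 162 and 131 in VO. The VO libraries were all below the sham libraries, with VO 2 the nearest. On the log2 scale Mybpc3 differed by -0.58 ± 0.13 (SE), with an unadjusted p of 0.00308 and an adjusted p of 0.332 in limma. Without sham 1 and VO 1 it was -0.49.

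Mybphl, on the plus strand at chr3:108364911-108380057, was more abundant than Mybpc3 in every library. It stood at 712, 527 and 486 FPKM in sham and at 265, 481 and 380 in VO. VO 2 was just below sham 3, and the groups did not overlap. On the log2 scale the difference was -0.64 ± 0.25 (SE), with an unadjusted p of 0.0405 and an adjusted p of 0.411 in limma. It was -0.41 without VO 1 and -0.24 without sham 1 and VO 1. Mybphl made up 69.7 to 76.5% of the summed FPKM of both genes in sham and 67.4 to 74.7% in VO, which overlapped.

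**Figure D4:**
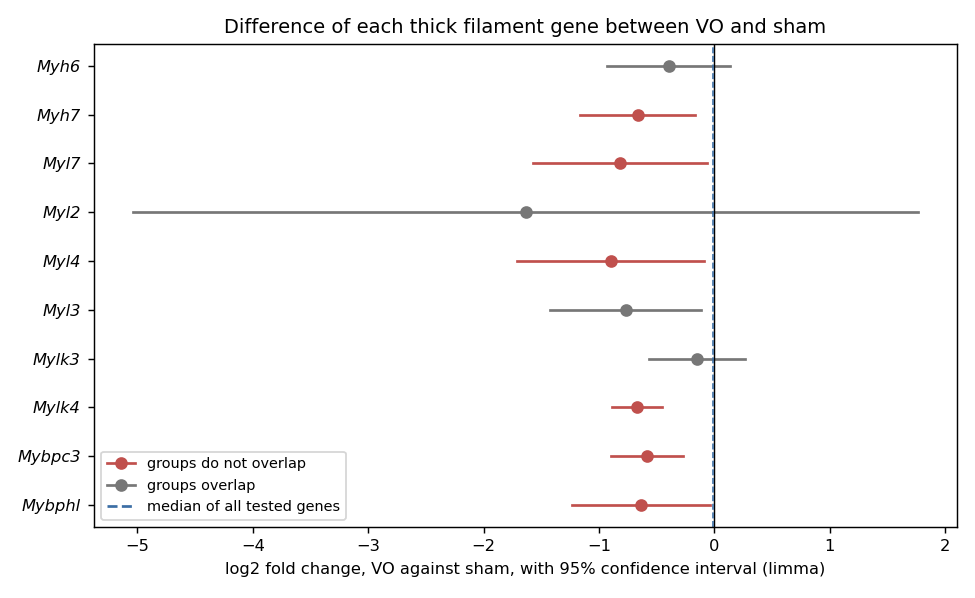
Log2 fold change of VO against sham from limma with its 95% confidence interval for the 10 genes, in red where no VO library reached a sham library and in grey where the groups overlapped. All 10 points lay below 0, with Mylk4 and Mybpc3 having the narrowest intervals and Myl2 the widest.

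Other genes of the cardiomyocyte were lower in VO as well. Of 15 reference genes outside the set, such as the troponins, Actc1, Ttn and Ryr2, 14 had a lower log2 level in VO. The share of all tested genes was 51.5%. At an unadjusted p under 0.05 in limma, 9 were lower, against 8.08% of the tested genes. Pln was higher (0.12), and Pln, Ttn and Ryr2 overlapped between groups. None of the 15 passed adjustment. Actc1, the cardiac actin, and Atp2a2, the calcium pump of the sarcoplasmic reticulum, were the highest of them, with log2 fold changes of -0.86 and -0.24. The mean log2 level of the list was 8.95, 8.72 and 8.78 in sham and 7.91, 8.54 and 8.34 in VO, a difference of -0.55 (exact permutation p = 0.1, the smallest possible).

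Relative to this list, the 10 genes were on both sides of 0. Mylk3 was higher by 0.40 without overlap, at -1.43, -1.19 and -1.22 in sham and -0.76, -0.78 and -1.10 in VO (log2 level minus the list mean). Its exact permutation p was 0.1, the smallest possible, and 0.714 after adjustment over the 10 genes. With every gene scaled to this list, the median log2 fold change of the 12627 tested genes was 0.53, above that of Mylk3. In that fit 5508 genes were higher at an unadjusted p under 0.05 in limma. The other 9 thick filament genes overlapped between groups. Myh6 differed by 0.16, Mybpc3 by -0.03, Mybphl by -0.09, Myh7 by -0.11 and Mylk4 by -0.12. Myl3 differed by -0.22, Myl7 by -0.26, Myl4 by -0.35 and Myl2 by -1.09. The order of the genes changed with the libraries. Without sham 1, Myh6 differed by 0.05, Myl3 by -0.03, Myl7 by -0.13, Myl4 by -0.24, Mylk4 by -0.21, Myh7 by -0.25 and Myl2 by -0.33. Without VO 1, Mylk4 (-0.31) was lower than Myl7 (-0.19) and Myl4 (-0.16). Adjusted p-values over the 10 genes ran from 0.714 to 0.9.

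**Figure D5:**
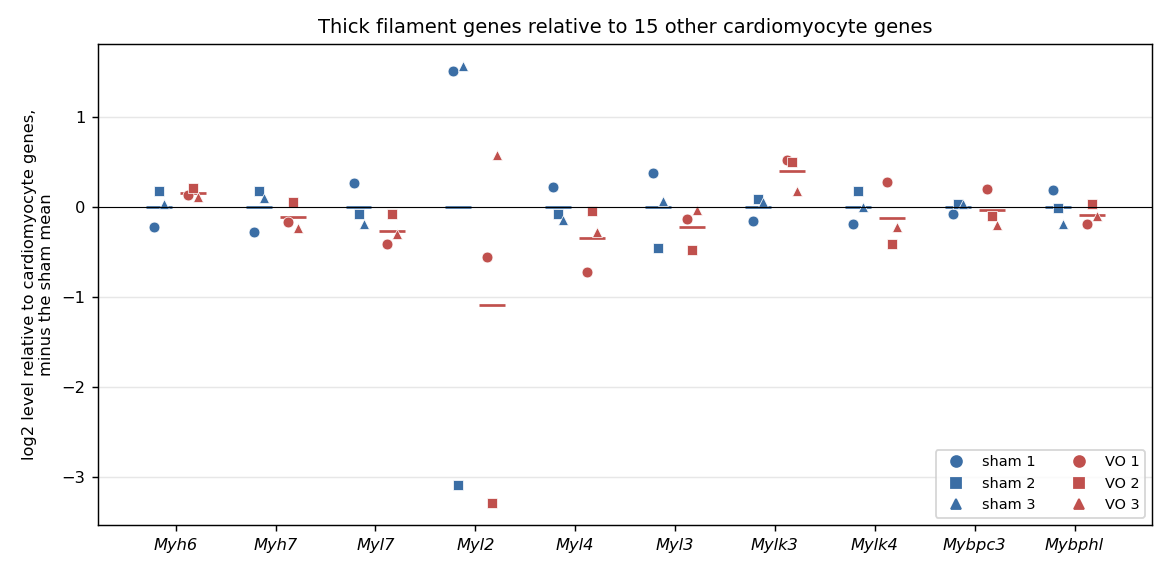
Log2 level of each thick filament gene relative to the mean of 15 other cardiomyocyte genes, set to 0 at the sham mean, in the 3 sham (blue) and 3 VO (red) libraries with bars for group means. Mylk3 was the one gene above its sham range in every VO library, and Myl2 spread over several log2 units in both groups.

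The genes most like single members over the 6 libraries were found by the root mean square difference of log2 values centred on their mean. Atp5o (0.043), Fxyd1 (0.052) and Tnnc1 (0.067) were nearest to Myl7. Slc4a3 (0.032), Rita1 (0.055) and Mrto4 (0.057) were nearest to Myh6. No gene came near Myl2, for which the smallest difference was 0.76 for Mir133a-2, followed by Gm26440 (0.99) and Acta1 (1.26), all of which averaged under 1.3 FPKM. Within the set, Myl7 was nearest to Mybphl (0.10) and Myl4 (0.12), and Mylk4 to Mybpc3 (0.14).

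Of 13 other sarcomeric myosin and binding protein genes, 2 passed the filter, Myl1 and Mybpc2. Both were lower in every VO library than in any sham library, as were 12.9% of all tested genes. Myl1, an essential light chain of fast skeletal muscle, was 186 ± 37.7 FPKM in sham and 134 ± 36.1 in VO (SD, n = 3). Its log2 fold change was -0.49 (limma adjusted p = 0.435). Mybpc2, the fast skeletal binding protein, was 1.68 ± 0.15 and 0.783 ± 0.151 FPKM, with a log2 fold change of -1.02 (limma adjusted p = 0.354). Mylpf, the fast skeletal regulatory light chain, stayed under 1 FPKM in all libraries.

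Genes for thick filament assembly, phosphorylation and turnover showed no common direction. Of 22 tested, 13 had lower and 9 had higher log2 levels in VO, and 51.5% of all tested genes were lower. The median of the 22 was -0.09 on the log2 scale. At an unadjusted p under 0.05 in limma, 3 were lower, against 8.08% of all tested genes, and none passed adjustment. The 3 were Unc45b, a myosin chaperone (-0.46, from 60.8 to 44.4 FPKM), Trim63, the ubiquitin ligase MuRF1 (-0.38), and Smyd1, a methyltransferase needed for myosin assembly (-0.34). Hsp90ab1 and Calm2, the most abundant of the list, had -0.08 and 0.09.

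Smooth and non-muscle myosin genes were split, with 4 lower and 4 higher of 8 tested and a median of -0.02. Myl9, a regulatory light chain best known from smooth muscle, was 832 ± 201 FPKM in sham and 407 ± 185 in VO (SD, n = 3). Its log2 fold change was -1.10 (limma unadjusted p = 0.0143, adjusted p = 0.404), without overlap. Myl12a and Myl6, further light chains, had -0.55 and -0.49. Myh9, a non-muscle heavy chain gene, was higher in every VO library than in any sham library, with a log2 fold change of 0.32 (limma unadjusted p = 0.0323, adjusted p = 0.410). The smooth muscle heavy chain gene Myh11 was at 4.44 ± 0.33 FPKM in sham and 4.73 ± 1.86 in VO, and the smooth muscle marker Tagln was under 1 FPKM. Smooth muscle markers summed to 178 to 239 FPKM in sham and 82.9 to 137 in VO, mostly from Acta2.

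Among 17 tested transcription factors known to act on myosin genes, 7 had lower and 10 had higher log2 levels in VO, with a median of 0.03. Srf, the serum response factor that binds the CArG box, had a log2 fold change of -0.57 (50.2 ± 6.9 FPKM in sham and 33.6 ± 2.6 in VO, limma unadjusted p = 0.00369, adjusted p = 0.344). Nkx2-5, an early cardiac homeobox factor, had -0.46 (limma unadjusted p = 0.0115, adjusted p = 0.404). Both were lower in every VO library than in any sham library, as were 12.9% of all tested genes. Tbx5, a T-box factor of the atria, had -0.24 and overlapped between groups. The MEF2 genes Mef2a, Mef2c and Mef2d had 0.01, -0.09 and 0.06.

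Among marker lists of other cells, the summed fibroblast level was 699 to 779 FPKM in sham and 761 to 1117 in VO, highest in VO 1. Col3a1 and Dcn, the most abundant fibroblast markers, had log2 fold changes of 0.61 and -0.03, and both overlapped between groups. Endothelial markers summed to 169 to 175 FPKM in sham and 175 to 184 in VO. Of the 7 atrial markers, 5 had lower log2 levels in VO, against 51.5% of all tested genes. Nppa and Bmp10 were the most abundant at 3906 ± 1393 and 1576 ± 110 FPKM in sham and 2082 ± 1102 and 1150 ± 222 in VO (SD, n = 3). Nppa encodes the atrial natriuretic peptide and Bmp10 a growth factor of the RA, and both were high in every library. Sinoatrial node markers summed to 7.49 to 18.4 FPKM in sham and 4.49 to 16.5 in VO, and lymphocyte markers to 2.99 to 3.06 and 3.03 to 11.4 FPKM, highest in VO 1.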

How the data were processed

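RNA of RA tissue was sequenced in 3 sham and 3 VO libraries. Per the submitters' processing notes the tools were HISAT2 2.0.5, StringTie 1.3.3b, featureCounts 1.5.0-p3 and DESeq2 1.16.1, with GATK 3.7 also listed and the builds GRCm38 and mm10. The deposited values are FPKM, fragments scaled by gene length and library size, which the authors computed from gene counts. Gene coordinates were identical to GENCODE M21 for 98.4% of 54039 shared genes. The table held 54093 complete genes, and 1 incomplete line was left out.

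Each FPKM times gene length was a whole multiple of 1 step per library for 100% of values (tolerance 0.01 fragments), which gave the fragments per gene. The deposited FPKM already carried a scaling between libraries, since median-of-ratios factors were 1 in all 6. The 12627 genes whose mean FPKM reached 1, all 10 members among them, were tested on log2(FPKM + 0.1) with limma 3.58.1 in R 4.3.3 (lmFit, eBayes with trend). The test was two-sided, p-values were adjusted by Benjamini-Hochberg over these 12627 genes, and the threshold was 0.05. Fold changes are on that scale, which understates differences of low genes. Counts were not used here as the main values, and voom on recovered fragments was an alternative. Ratios and levels relative to cardiomyocyte genes were compared with exact two-sided permutation tests, which cannot go below 0.1 with 3 libraries against 3.

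The members and lists were chosen with earlier results of these data known. All members are named, as are the 3 highest and the 2 smallest p of each further list. Also named are the 3 nearest profiles of Myl7, Myh6 and Myl2. Of the cardiomyocyte, atrial, ventricular and fibroblast marker lists the 2 highest are named. Other marker lists are given mainly by their sums. Other genes, such as Myh9, Irx4 and Hand1, were named after their values were seen. Alternatives were other pseudocounts (1 and 0.01), filters, scalings, eBayes without trend, a replicate block, each library left out, and, added after the data were seen, principal transcript lengths, sham 1 with VO 1 left out, and each library left out of 3 further ratios. The fit was tested on simulated data with planted changes. Replicates were not duplicates (chi-square per gene 10.1 to 51.9). Figures used matplotlib 3.10.9 in Python 3.11.15.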

Additional observations from a re-analysis of the deposited data

How the results depend on the processing

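No member passed the adjusted threshold under any of the 18 alternatives run, in which adjusted p-values ran from 0.0899 upward. All 10 were lower in VO under each of them, except Myh6 (0.16) and Mylk3 (0.40) with scaling to cardiomyocyte genes and Mylk3 (0.11) with quantile normalization. The number of members lower at an unadjusted p under 0.05 was 7, and became 4 with quantile normalization, 4 with no filter, 0 with scaling to cardiomyocyte genes, 3 with sham 1 and VO 1 both left out, and 3 to 8 when each library was left out (3 without sham 1 or without VO 1, 4 without sham 3 or without VO 3). Over all tested genes these numbers were 1020 of 12627 in the main fit, 834 with quantile normalization and 1221 of 26706 with no filter. They were 54 with scaling to cardiomyocyte genes and 624 with sham 1 and VO 1 both left out. Leaving out each library gave 574 to 1214. Scaling to cardiomyocyte genes moved the median over all genes to 0.53 (log2) and TPM moved it to 0.13.

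Among all genes, 1020 were lower and 491 higher at an unadjusted p under 0.05. The numbers were 488 and 1085 with TPM and 54 and 5508 with scaling to cardiomyocyte genes. Lower genes numbered 624 without both sham 1 and VO 1 and 574 to 1214 when each library was left out. Higher genes numbered 840 with no filter, 229 with a mean FPKM of at least 5 and 281 to 784 when each library was left out. The single gene past the adjusted threshold became 0 with quantile normalization, 2 with a pseudocount of 1, 3 without trend, 5 with scaling to cardiomyocyte genes, 0 without sham 1 and VO 1, and 0 when each library was left out.

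With the replicate block, 608 genes were lower and 324 higher, 0 passed adjustment and 5 members were at an unadjusted p under 0.05. The labels name no litter or day for the replicate numbers, so whether they pair the samples is not known. Deviations of same-numbered libraries correlated at -0.108, 0.0112 and -0.0292, which cannot exclude a shared litter or day.

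Leaving out each library gave -0.37 to 2.33 for the Myl7 to Myl2 difference and -0.41 to 0.10 for the Myl4 to Myl3 difference. The Myh6 to Myh7 difference kept its direction at 0.23 to 0.32, as did Mylk3 to Mylk4 at 0.32 to 0.65 and Myl7 to Myh6 at -0.55 to -0.18. For Myl7 to Myl4 the range was -0.0284 to 0.14, and -0.0049 with sham 1 and VO 1 both left out. Relative to cardiomyocyte genes, the ranges were -0.15 to 0.0518 for Mybpc3 (0.0038 with the median over the list), -0.18 to 0.0129 for Mybphl, -2.63 to 0.0141 for Myl2, -0.31 to 0.0281 for Mylk4, 0.05 to 0.25 for Myh6, -0.25 to -0.03 for Myh7, -0.36 to -0.13 for Myl7, -0.50 to -0.16 for Myl4 and -0.44 to -0.03 for Myl3. The causes were not tested. Depth limited the Mir208a row, with at most 5 fragments. For Myl2 the spread between libraries was the limit.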
